A study of Drosophila melanogaster with 2 samples.

Results

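The mitochondrial ribosomal protein genes of Drosophila melanogaster were examined for binding of a dimm-eGFP fusion protein in embryos. They were taken as all protein-coding genes of the Ensembl annotation whose symbol starts with mRpL (proteins of the large ribosomal subunit) or mRpS (proteins of the small subunit), which gave 73 of 13968 protein-coding genes, 47 of the large and 26 of the small subunit. The gene set was chosen by its symbols, and it was proposed with results of these same libraries in view, in which several of its promoters stood near the top of the list of bound regions. The peak values below are therefore a description and carry no test. In the list that combines the replicates, 10 of the 73 genes had a bound region in their span or within 1 kb upstream, and 4 of those regions were among the 25 strongest of the genome. The remaining genes mostly had weak candidates or none.

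The libraries were chromatin immunoprecipitations followed by sequencing (ChIP-seq) from whole embryos of a strain called dimm-GFP, aged 0 to 24 hours, pulled down with an antibody to GFP. There was 1 group with 2 biological replicates, and no other genotype, treatment or stage. Whole embryos were used, so a region cannot be assigned to a cell type from these data, and GFP binding reports the tagged fusion protein and not the untagged one. The depth of the libraries is unknown, because the files used here hold peaks and not reads, and no control library was used here.

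Mitochondria carry their own small genome and translate its messages on their own ribosomes, which resemble those of bacteria more than those of the cytoplasm. The ribosomal RNAs of these ribosomes are encoded in the mitochondrial genome, but nearly all of their proteins are encoded in the nucleus, made in the cytoplasm and imported. The products of mitochondrial translation are core subunits of the respiratory chain and of ATP synthase. Dimm (dimmed) is a basic helix-loop-helix transcription factor known for driving the secretory programme of neuroendocrine cells. Factors of this class typically bind the E-box, CANNTG.

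The sequence around the summit (the position of highest signal in a region) was rich in A and T at most of the bound genes. Within 50 bp of the summit an E-box was found at 1 of the 10. The bases from 50 bp before to 50 bp after the summit are shown for 6 of the bound promoters. They are read on the plus strand of the Release 6 genome (build dm6). Capitals mark any E-box, CANNTG, a motif that reads the same on both strands.
mRpS10, chr3R:15229483-15229583: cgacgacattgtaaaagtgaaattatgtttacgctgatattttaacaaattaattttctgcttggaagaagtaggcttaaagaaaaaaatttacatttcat
mRpS23, chr2L:13835415-13835515: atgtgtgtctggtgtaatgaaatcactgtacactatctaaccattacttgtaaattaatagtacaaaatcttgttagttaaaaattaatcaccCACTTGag
mRpL24, chr2L:4945437-4945537: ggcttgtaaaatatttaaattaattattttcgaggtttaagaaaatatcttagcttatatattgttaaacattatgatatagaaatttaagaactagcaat
mRpS2, chr2L:4850524-4850624: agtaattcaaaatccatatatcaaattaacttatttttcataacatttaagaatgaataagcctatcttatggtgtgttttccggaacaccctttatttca
mRpL20, chr3L:13018092-13018192: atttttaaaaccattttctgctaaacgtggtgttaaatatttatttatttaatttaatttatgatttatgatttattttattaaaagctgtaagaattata
mRpS6, chr3L:4364413-4364513: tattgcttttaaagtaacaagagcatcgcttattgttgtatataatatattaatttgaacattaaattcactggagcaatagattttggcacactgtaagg

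Across the 10 bound genes, 1 window held an E-box (10%), that of mRpS23, against 33.2% of the windows of all 1739 regions. The share of G and C in these windows had a median of 26.7% at the 10 genes and 25.2% at the 8 with a summit within 500 bp of their start, against 31.7% over all regions and 30.7% over the 701 regions within 500 bp of a protein-coding start. The lowest was 15.8%, at mRpL20. The highest of the 8 promoter windows was 29.7%, at mRpS23. A window of 52.5%, at mRpL45, stood apart from the others, and it lies inside the coding sequence of another gene.

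The conservative list, in which the replicates are compared with each other, held 10 of the 73 genes (13.7%), against 11.2% of all protein-coding genes. The list of replicate 1 alone held 7 (9.59%), against 8.21%, and the list of replicate 2 alone held 10 (13.7%), against 7.8%. In all 3 lists there were 7 genes (9.59%), against 6.14%, and these were mRpL20, mRpL23, mRpL24, mRpL41, mRpS2, mRpS10 and mRpS23. With the summit within 500 bp of an annotated start, the conservative list held 8 genes (11.0%), against 6.92%. The shares in the conservative list and in that of replicate 1 are near the background, and those of the other counts lie above it by a few genes. The number of listed genes is therefore no result about the gene family, and the account below turns to the individual regions.

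The large-subunit genes had 5 members of 47 in the conservative list (10.6%), 4 in that of replicate 1 (8.51%) and 6 in that of replicate 2 (12.8%). The small-subunit genes had 5 of 26 (19.2%), 3 (11.5%) and 4 (15.4%) in the same lists. All protein-coding genes were at 11.2%, 8.21% and 7.8%. The difference between the subunits rests on few genes and was not tested.

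**Figure D1:**
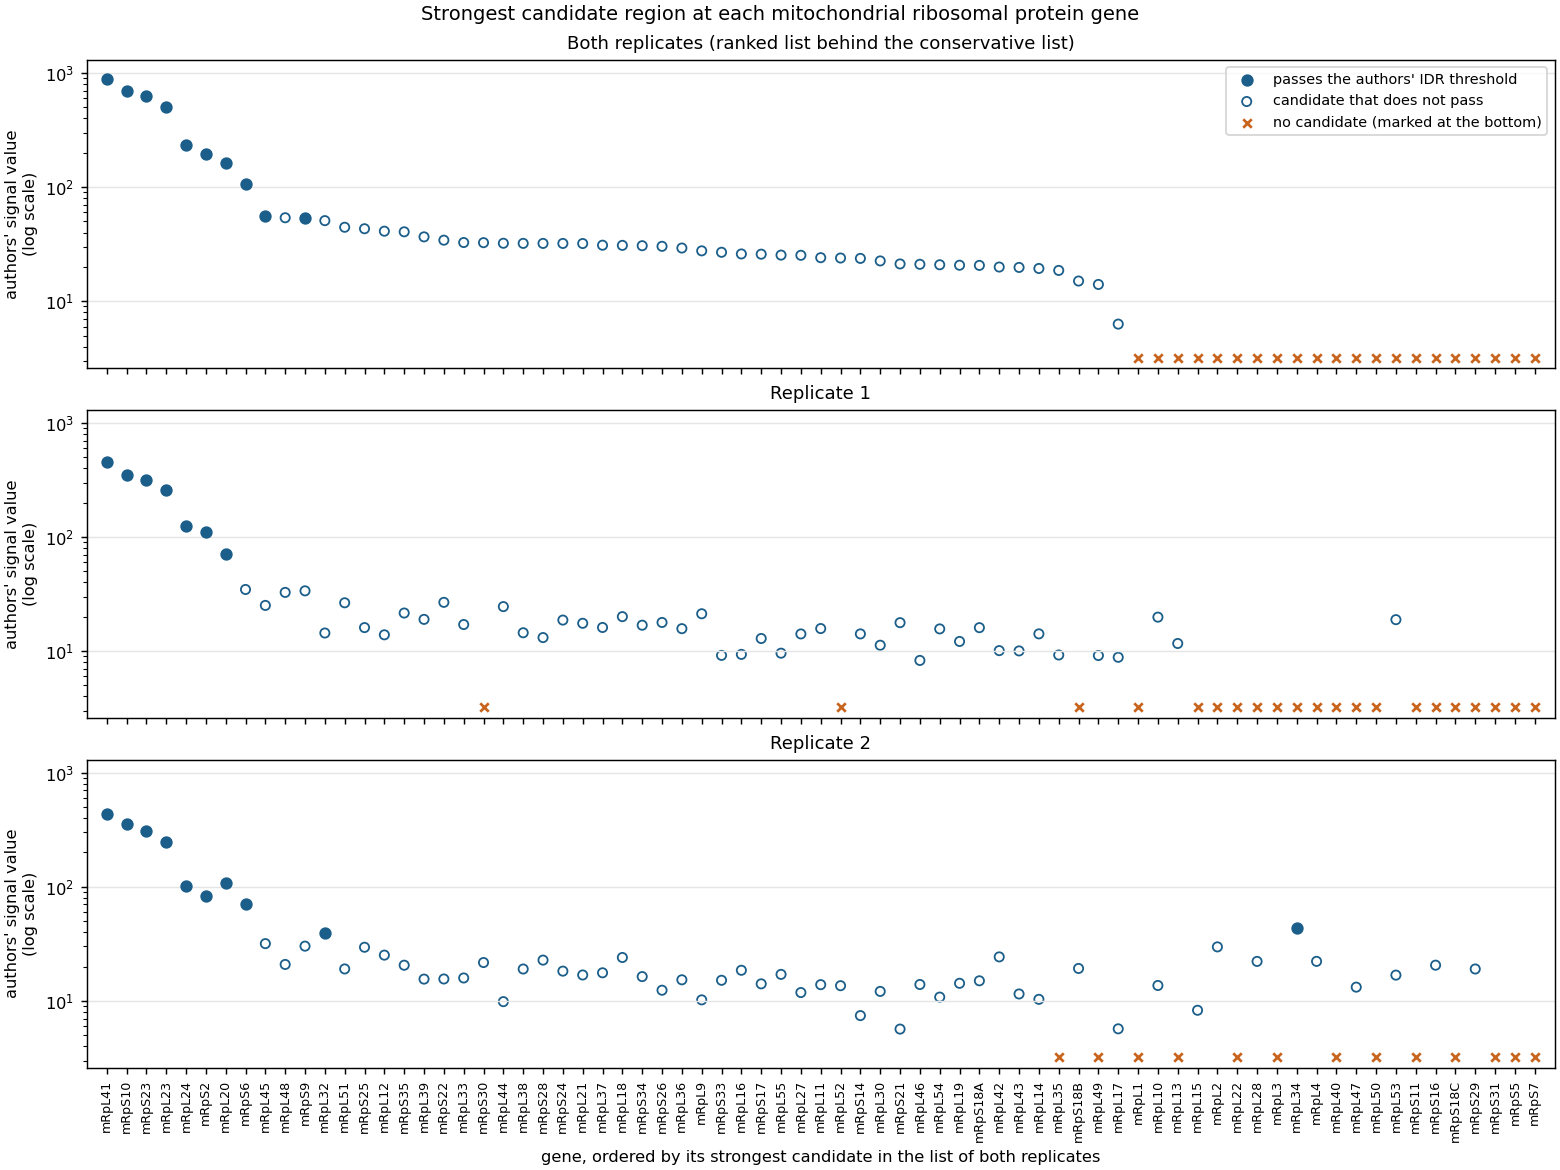
Strongest candidate region of each of the 73 genes in the ranked list of both replicates, of replicate 1 and of replicate 2 (y axis, the authors' signal value on a log scale; x axis, genes in the order of the top panel; crosses at the bottom mark genes with no candidate). 7 genes at the left have a region that passes the threshold in every panel, and in the top panel the candidates that do not pass run between 53.9 and 6.30.

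The strongest of these regions belonged to mRpL41, a gene of the large subunit on chromosome arm 2R (FBgn0034001, minus strand). Its region, chr2R:15217635-15217875 (dm6), had a signal of 885 and ranked 4 of 1739 regions. The signal is the authors' own value for a peak, with no normalization stated, and it serves here only to rank regions within a list. Replicate 1 gave 455 (rank 3 of 1176) and replicate 2 gave 431 (rank 3 of 1114). The summit lay 141 bp upstream of mRpL41, between that gene and CG8079, whose start is 621 bp away on the other side. The placements in the replicates differed by 15 and 6 bp from that summit.

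Among the other large-subunit genes, mRpL23 (FBgn0035335) is the counterpart of bacterial L23, which lies at the exit of the tunnel through which the new chain leaves the ribosome. Its region, chr3L:2373516-2373692, had a signal of 508 and ranked 22. Replicate 1 gave 258 (rank 20) and replicate 2 gave 245 (rank 24). The summit lay 57 bp past the nearest annotated start of mRpL23, inside a 5′ untranslated exon of the gene, and 107 bp upstream of CG9004. It is the only one of the 8 promoter summits to lie in the transcribed span of its own gene.

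The region of mRpL24 (FBgn0031651), the counterpart of another bacterial protein near the tunnel exit, was chr2L:4945335-4945638 with a signal of 232 (rank 164). Replicate 1 gave 126 (rank 143) and replicate 2 gave 103 (rank 205). Its summit lay 126 bp upstream of mRpL24 and 92 bp upstream of betaggt-I, which encodes a subunit of a geranylgeranyl transferase. mRpL20 (FBgn0036335), the counterpart of bacterial L20, had a region at chr3L:13017990-13018293 with a signal of 162 (rank 315). Here the replicates differed most of the 7 genes, with 71.0 in replicate 1 (rank 422) and 107 in replicate 2 (rank 185), and their summits lay 28 bp to either side of the combined one. That summit was 275 bp upstream of mRpL20 and nearer, at 124 bp, to Icmt, an isoprenylcysteine carboxyl methyltransferase gene.

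In the small subunit the strongest region was that of mRpS10 (FBgn0038307), chr3R:15229398-15229640, with a signal of 699.8 (rank 7). Replicate 1 gave 348 (rank 9) and replicate 2 gave 353 (rank 8). The summit lay 132 bp upstream of mRpS10 and 125 bp upstream of Art3, an arginine methyltransferase gene. The genes are transcribed away from each other, and the summit sits almost at the midpoint of the 257 bp between their starts.

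mRpS23 (FBgn0260407), whose protein is found in mitochondrial ribosomes and has no bacterial counterpart, had a region at chr2L:13835348-13835566 with a signal of 629 (rank 12). Replicate 1 gave 318 (rank 13) and replicate 2 gave 310 (rank 13). Its summit was the farthest upstream of the 8, at 393 bp from mRpS23 and 99 bp from CenG1A, a gene for a GTPase-activating protein. mRpS2 (FBgn0031639), the counterpart of bacterial S2, had a region at chr2L:4850422-4850725 with a signal of 197 (rank 210). Replicate 1 gave 111 (rank 175) and replicate 2 gave 82.8 (rank 328). The summit lay 155 bp upstream of mRpS2 and 67 bp upstream of Mon1, which encodes a protein of endosome maturation.

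The other 3 genes of the conservative list were less reproducible. mRpS6 (FBgn0035534), the counterpart of bacterial S6, had a region at chr3L:4364311-4364614 with a signal of 107 (rank 693) and a summit 87 bp upstream of its start. That summit also lay 361 bp upstream of Cip4, a gene for a membrane-bending F-BAR protein, and 971 bp upstream of CG33514. Replicate 2 listed it, with 70.8 (rank 432). In replicate 1 its candidate of 34.7 did not pass, with a −log10 of the irreproducible discovery rate (IDR) of 1.21 where the lists begin at 2. The IDR is low where a region ranks consistently high in both sets of peaks compared, so a higher −log10 means a more reproducible region.

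The weakest regions were those of mRpL45 (FBgn0263863) and mRpS9 (FBgn0037529), and neither replicate's own list held them. The region of mRpL45, chr3R:22617420-22617723, had a signal of 56.3 (rank 1644) and its summit lay 920 bp upstream, in the coding sequence of CG31161. The candidate at that place had a signal of 25.1 in replicate 1 and 31.8 in replicate 2. The region of mRpS9, chr3R:7895496-7895799, had a signal of 53.9 (rank 1688) and a summit 7019 bp into the gene, in an intron. That position is 174 bp upstream of wtrw, a gene for an ion channel of the TRP family that overlaps mRpS9. Candidates there reached 33.7 in replicate 1 and 30.2 in replicate 2. With mRpL45 at a −log10 IDR of 2.04 and mRpS9 at 2.33, these 2 genes stood just inside the threshold of 2, and the nearest gene outside it was mRpL48, at 1.39.

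In the list of replicate 2 alone there were 2 further genes. mRpL34 had a signal of 44.0 (rank 966) and a summit 171 bp upstream, shared with Dg, which encodes dystroglycan. No candidate was found at mRpL34 in the ranked list of replicate 1 or of both replicates. mRpL32 had a signal of 39.6 (rank 1061) and a summit 668 bp upstream, which is 30 bp upstream of qless, a gene of coenzyme Q synthesis. At mRpL32 the candidate of replicate 1 had a signal of 14.4.

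Taken by strength, regions at these genes numbered 4 among the strongest 25, still 4 among the strongest 100, 5 among the strongest 200 and 7 among the strongest 400, while they make up 0.575% of all regions. The median signal of the 10 regions was 214, against 91.6 over all regions and 107 over regions within 500 bp of a protein-coding start. Because the set was proposed with its strong promoters in view, these values describe it. They cannot test whether its regions are stronger than others. The 10 values fall into a group of 4 between 508 and 885, a group of 4 between 107 and 232, and a pair at 53.9 and 56.3. The top 4 regions were also narrower, 177 to 243 bp, where 86.8% of all regions had the most frequent width, 304 bp. Across the 7 genes in both replicates' own lists, the ratio of replicate 1 to replicate 2 ran between 0.664 at mRpL20 and 1.34 at mRpS2. Over these 7 regions, which come from the same pair of libraries, Pearson's r of the log2 signals was 0.948 and Spearman's rho 0.893.

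**Figure D2:**
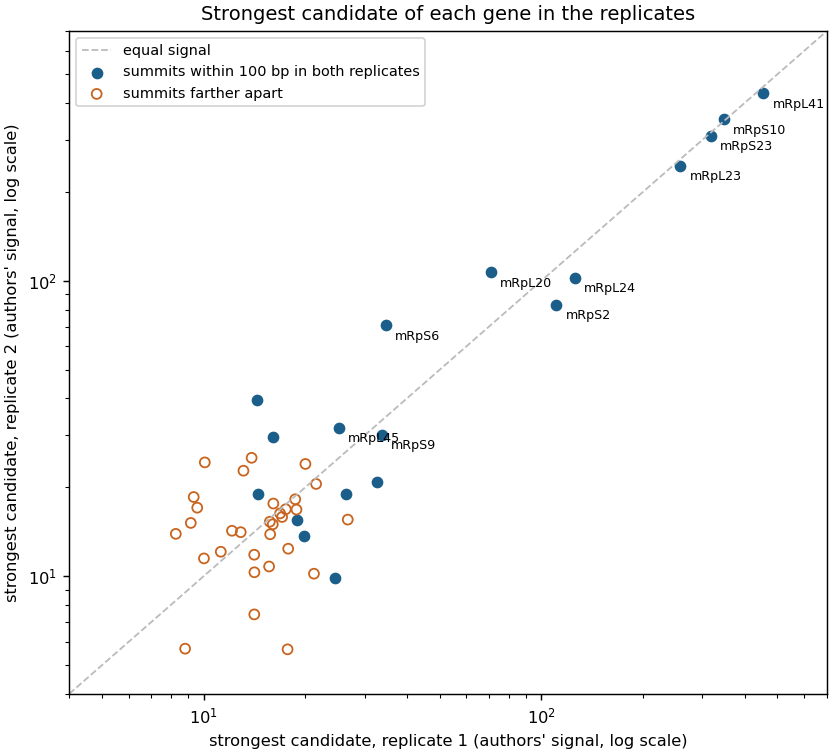
Signal of the strongest candidate of each gene in replicate 2 (y axis) against replicate 1 (x axis), both the authors' values on log scales, for the 49 genes with a candidate in both. Filled points have summits within 100 bp of each other and open points lie farther apart; genes of the conservative list are named and the strongest of them lie along the dashed line of equal signal.

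In the ranked list behind the conservative one, 52 of the 73 genes had a candidate (71.2%), against 84.6% of all protein-coding genes and 81.2% of those up to 2 kb long. Of these, 42 had not passed the threshold, and their signals ran between 6.30 and 53.9 with a median of 27.2. The strongest were mRpL48 with 53.9, mRpL32 with 50.9, mRpL51 with 44.5, mRpS25 with 43.2 and mRpL12, the counterpart of the bacterial stalk protein, with 41.1. Their ranks were between 2279 and 6127 of 139701 candidates. The weakest were mRpS18B with 15.0, mRpL49 with 14.0 and mRpL17 with 6.30.

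For 49 genes both replicates had a candidate, and in 18 of them the strongest ones lay within 100 bp of each other. All 10 genes of the conservative list, which is made from both replicates, were among these 18. Of the 38 genes in no list, 7 had candidates that close. Over the 38, Spearman's rho between the replicates' signals was 0.141, and Pearson's r of the log2 signals was 0.142. The genes with no candidate in any ranked list numbered 10: mRpL1, mRpL3, mRpL22, mRpL40, mRpL50, mRpS5, mRpS7, mRpS11, mRpS18C and mRpS31.

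Every one of the 10 regions was shared: its summit also fell in the body, or the kilobase before the start, of at least 1 other protein-coding gene. Of the 1456 regions near a protein-coding gene, 28.4% had more than 1 such gene. That share counts each region once. The 10 were reached through a gene, which favours regions with several genes, so the shares are not counted alike. The nearest start was that of the other gene in 6 regions and that of the mitochondrial ribosomal gene in 4, those of mRpL41, mRpL23, mRpS6 and mRpL45. In 7 regions the summit lay between genes. Binding measured at a shared promoter cannot be assigned to either gene from these files. The distance of the summit to the start of the mitochondrial ribosomal gene had a median of 148 bp over the 10 regions and 136.5 bp over the 8 promoter regions.

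**Figure D3:**
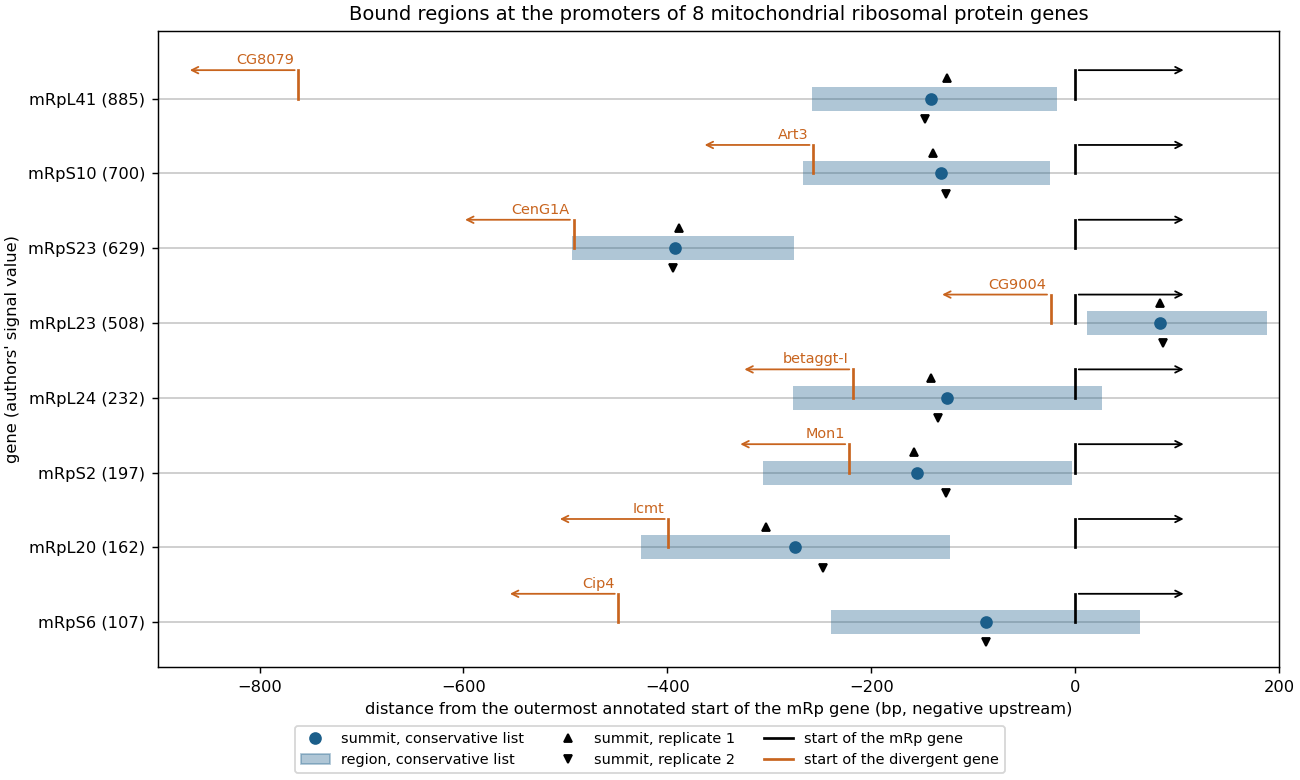
The 8 promoter regions drawn to scale from the outermost annotated start of each gene (x axis, bp, negative upstream; rows ordered by signal, given in parentheses). Shaded bars are regions and circles their summits in the conservative list, triangles are the summits in each replicate's own list, black arrows are the starts of the mitochondrial ribosomal protein genes and orange arrows those of the divergent neighbours; in 7 of the 8 the summit lies between the 2 starts.

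A divergent arrangement is common to the gene family as a whole. Of the 73 genes, 51 (69.9%) had a protein-coding gene starting on the opposite strand within 500 bp upstream, against 24.9% of all protein-coding genes. Within 1000 bp the shares were 76.7% and 33.3%. None of the divergent partners was itself a mitochondrial ribosomal protein gene. The genes are also short, with a median span of 909 bp against 2164.5 bp for all protein-coding genes, and range between 390 bp and, at mRpS9, 13391 bp. They are spread over the genome, with 21 on 3R, 17 on 3L, 12 on 2L, 12 on 2R, 11 on X and 0 on 4 and Y.

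Both features move the background share in different directions. Among genes up to 2 kb long, 9 of 70 mitochondrial ribosomal protein genes (12.9%) were in the conservative list, against 5.46% of all protein-coding genes of that length. In the list of replicate 1 the shares were 10% and 3.98%, and in that of replicate 2 they were 14.3% and 3.49%. Among genes with a divergent partner within 500 bp the shares were 13.7% (7 of 51) and 16.3% in the conservative list, 11.8% and 12.8% in that of replicate 1, and 17.6% and 11.3% in that of replicate 2. Of the 22 mitochondrial ribosomal protein genes without such a partner 3 were listed (13.6%), against 9.43% of all protein-coding genes without one, but in the replicates' own lists 1 of the 22 was listed (4.55% in each), against 6.7% in that of replicate 1 and 6.65% in that of replicate 2. So in these lists the family's share was above that of short genes, and above or below that of divergent and of other genes depending on the list, and none of these differences was tested.

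**Figure D4:**
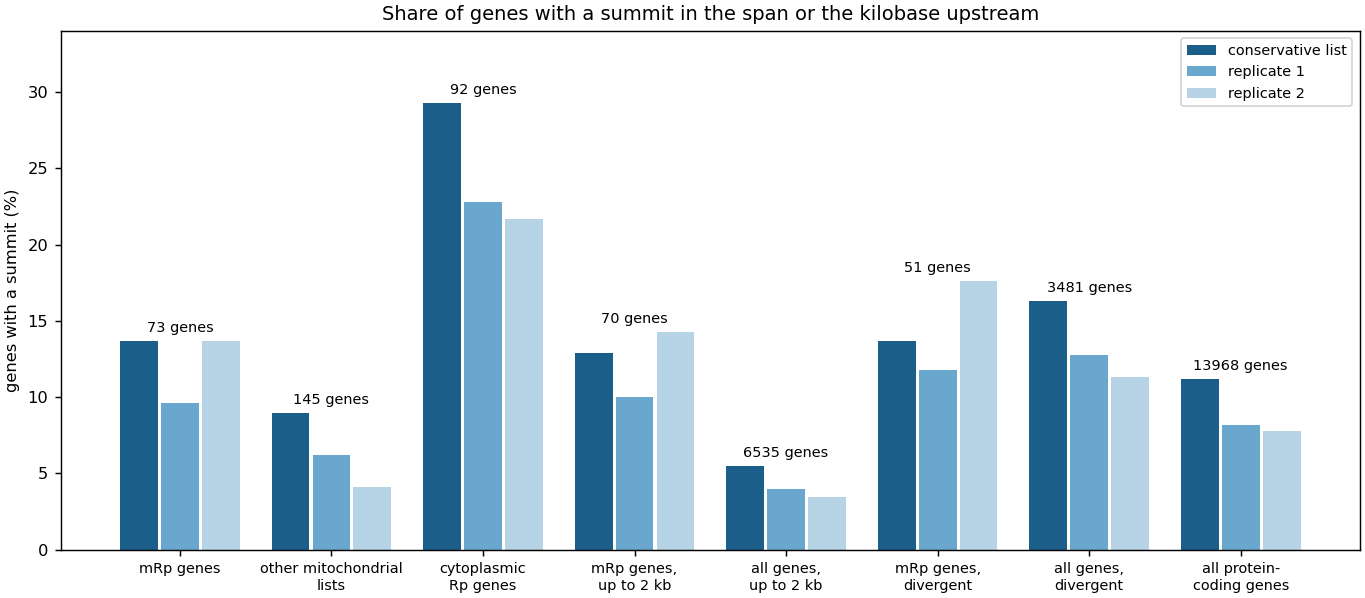
Percent of genes with a summit in their span or the kilobase upstream (y axis) in the conservative list and in each replicate's own list, for the mitochondrial ribosomal protein (mRp) genes, other gene lists and, at the right, all protein-coding genes; the number of genes stands above the bars. The 73 mRp genes reach 13.7% in the conservative list, the 92 cytoplasmic ribosomal protein (Rp) genes 29.3% and all genes 11.2%.

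Other nuclear genes of mitochondrial function were set beside the ribosomal protein genes. Of 145 genes in 5 lists (translation factors, aminoacyl-tRNA synthetases, DNA and RNA metabolism, oxidative phosphorylation and protein import), 13 were in the conservative list (8.97%). The share of all protein-coding genes was 11.2%. By list the 13 were 1 of 9 translation factor genes (11.1%), 2 of 15 synthetase genes (13.3%), 2 of 18 DNA and RNA genes (11.1%), 5 of 88 oxidative phosphorylation genes (5.68%) and 3 of 15 import genes (20%). These counts are small and were not tested against that share. A single one of the 13 genes came near the strength of mRpL41 and mRpS10. This was PNPase, for an enzyme that degrades mitochondrial RNA, with a signal of 699.7 (rank 8), 325 in replicate 1 and 367 in replicate 2, at a summit shared with Gprk2. The others in all 3 lists were LeuRS-m, for the mitochondrial leucyl-tRNA synthetase, with 179, the complex I genes ND-ASHI with 189, ND-MWFE with 141 and ND-24 with 98.9, and Tim17a2, for a subunit of the inner membrane import machinery, with 79.9.

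The cytoplasmic ribosomal protein genes had more listed regions, none of them as strong as the top 4 of the mitochondrial set. Of 92 genes, 27 (29.3%) were in the conservative list, 21 (22.8%) in that of replicate 1, 20 (21.7%) in that of replicate 2 and 15 (16.3%) in all 3. The shares of all protein-coding genes were 11.2%, 8.21%, 7.8% and 6.14% in the same order. The strongest were RpL7 with 251 (rank 133), RpS27 with 235, RpL32 with 172, RpL14 with 165, RpS28b with 161 and RpL23A with 152. Except at RpL23A, these summits were shared with other genes.

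The promoters of the mitochondrial ribosomal protein genes often held the E-box CAGCTG, at genes with and without a bound region. It was found in the 301-bp window from 250 bp before to 50 bp after the outermost start of 40 of the 73 genes (54.8%), against 17.7% of all protein-coding genes. Among genes with a divergent partner within 500 bp the shares were 54.9% and 24.7%, and among those without one 54.5% and 15.3%. The search reads both strands, which are the same for this palindrome. Among 497 classes of 6 bases, each a word with its reverse complement, that occurred in at least 12 of the genes, CAGCTG had the highest ratio to all protein-coding genes, at 3.10. The next, ACAGCT, overlaps it, with 50.7% against 19.7%. Large-subunit genes had it in 27 of 47 (57.4%) and small-subunit genes in 13 of 26 (50%).

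The motif lay close to the start of transcription. In 35 of the 40 genes (87.5%) it began within 50 bp of the start, against 52.8% of the protein-coding genes that have it. In the bin from 0 to 24 bp past the start it occurred in 19 of the 73 genes (26%), against 2.82% of other protein-coding genes. There were 45 such motifs in the windows of the 40 genes, 5 of which had 2. Their first base had a median position of 2 bp past the start.

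**Figure D5:**
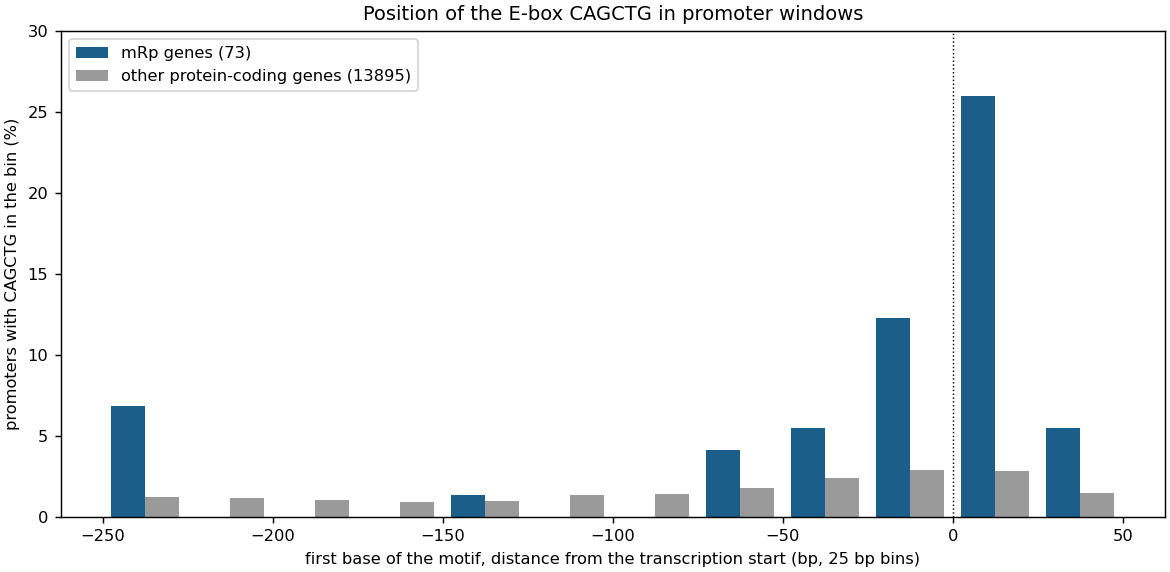
Percent of promoters with the E-box CAGCTG (y axis) by the position of its first base relative to the outermost transcription start (x axis, bins of 25 bp), for the 73 mitochondrial ribosomal protein (mRp) genes and the 13895 other protein-coding genes. The mRp genes peak at 26% in the bin just past the start, where the others are at 2.82%.

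Sites of 10 genes named above are printed to show the bases around the motif and that it occurs at both listed and unlisted genes. Each is the 30-bp stretch around CAGCTG, in capitals, on the strand of the gene (Release 6 genome, coordinates of dm6). The first 5 genes are in the conservative list, and mRpL32 was in that of replicate 2. The candidates of mRpL48 and mRpS25 were among the 5 strongest that did not pass. Those of mRpL17 and mRpS18B were among the 3 weakest.
mRpL23, chr3L:2373715-2373744, minus strand: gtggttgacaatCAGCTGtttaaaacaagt
mRpL24, chr2L:4945324-4945353, minus strand: ttcagttctcaaCAGCTGattgcaagccgc
mRpL45, chr3R:22618471-22618500, plus strand: aatcacgtttgcCAGCTGgtcgcgttagtg
mRpS2, chr2L:4850413-4850442, minus strand: aacactacccacCAGCTGtttaccaaaatc
mRpS6, chr3L:4364552-4364581, plus strand: ctttccttgcatCAGCTGttaacactatca
mRpL32, chr3R:31252844-31252873, plus strand: atatcgatagcaCAGCTGtttcctcttgcg
mRpL48, chr2L:1710471-1710500, plus strand: gctgcacgccatCAGCTGgtgatataacct
mRpS25, chrX:14582959-14582988, minus strand: tagccgaccgatCAGCTGttcgcattacac
mRpL17, chr3L:264780-264809, plus strand: ataaatggtcgcCAGCTGttcggcgaatgt
mRpS18B, chr2L:20097216-20097245, minus strand: tgtatcggaaaaCAGCTGatccgccggctc

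These motifs were not within 50 bp of the summits. None of the 10 summit windows held CAGCTG, against 2.99% of those of all regions, and 10 windows are few for so low a share. The bound regions are wider than these windows. At mRpS2, mRpL24 and mRpS6 a CAGCTG of the promoter lay inside the bound region, and at mRpL41 and mRpL23 it lay outside. In the 5 bound promoters with the motif, its copy nearest to the summit lay between 90 bp (mRpS2) and 132 bp (mRpL41) away. The distance was 111 bp at both mRpL23 and mRpL24. The promoters of mRpS2 and mRpL24 hold 2 copies each, and there the nearest copy is the one farther upstream. The sites printed above for these genes are the other copies, close to the start and farther from the summit. mRpS10, mRpS23 and mRpL20 had no CAGCTG in their promoter windows. Of the 40 genes with the motif 7 were in the conservative list (17.5%), and of the 33 without it 3 were (9.09%). In the list of replicate 1 the shares were 10% (4 genes) and 9.09%, in that of replicate 2 they were 15% and 12.1%, and in all 3 lists 10% and 9.09%. The 7 genes include mRpL45 and mRpS9, whose motif lay 911 and 7079 bp from the summit. With the summit within 500 bp of an annotated start, the conservative list held 5 of the 40 genes and 3 of the 33. Among all protein-coding genes the shares in the conservative list were 14.5% with the motif and 10.4% without. They were 10.9% and 7.63% in the list of replicate 1, 10.1% and 7.3% in that of replicate 2, and 8.63% and 5.6% in all 3. No difference was tested.

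The other motifs were also searched on both strands. TATCGATA, the DNA replication-related element, was in 15 of the 73 promoter windows (20.5%), against 9.36% of all protein-coding windows. Core promoter words were at 11.0% against 7.7% for GGTCACAC, 11.0% against 6.42% for CATCNCTA, 8.22% against 5.28% for GGTATTTT and 46.6% against 45.9% for TATAAA. The GAGA element word GAGAG was less frequent, at 16.4% against 29.8%. E-boxes of any class, CAGCTG included, were in 91.8% against 77.3%, and the 9 other classes had ratios between 0.655 and 1.62. CATATG, one of those classes, was in 11.0% against 7.83%. TTACGTAA was in 2 genes (2.74%, against 0.451%) and GCGCATGC in 1 (1.37%, against 1.05%). The promoter windows had a median G and C share of 34.6%, against 37.9% for all protein-coding genes.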

How the data were processed

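The authors deposited peak lists on build dm6, per the labels, and each peak carries a signal value of theirs; ranked lists also give the −log10 of the IDR that the authors deposited. The sources used here name no aligner, peak caller or normalization, and peak lists hold no read depth. The conservative list and each replicate's own list were used. Overlapping peaks (at least 1 bp) on the main chromosomes were merged, keeping the highest summit. A gene had a region where a summit lay in its span or 1 kb upstream (Ensembl release 115, BDGP6.54). Sequence came from the Release 6 genome. Distances are to the nearest annotated start of a gene, promoter windows are at the outermost one. All shares are counts with no test, computed with Python 3.11.15, pandas 2.3.3 and numpy 2.4.6 and checked on simulated data. Correlations used scipy 1.17.1. The members and lists were chosen with earlier results of these data known. Named genes are all those in the conservative list, those in 1 replicate's list alone, the 5 strongest and 3 weakest unlisted ones, genes sharing a summit, and up to 6 genes a pathway list found in all 3 lists. Of 13 translation factor symbols 9 matched the annotation.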

Additional observations from a re-analysis of the deposited data

How the results depend on the processing

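The number of mitochondrial ribosomal protein genes in the conservative list was 10. With summits in the gene's span alone it became 2 (2.74%, against 5.78% of all protein-coding genes), and the 7 genes in all 3 lists became 1 (1.37%, against 3.05%), so that both shares turned to below the background. It became 4 (5.48%) when only genes whose own start was the nearest to the summit were kept. That alternative was chosen after seeing the data, and the share of all protein-coding genes under it was not counted. Both rules lower the count by how they are built, since most summits lie upstream between divergent starts. Leaving out a replicate gave 7 to 10 genes. With 2 kb upstream there were 13 (17.8%, against 12.4%), in the stronger 50% of regions 8 (11.0%, against 6.4%), and at a −log10 IDR of at least 3 there were 7 (9.59%, against 5.63%). CAGCTG was in 40 promoter windows, in 41 at any annotated start, in 35 within 50 bp, and in 0 of the summit windows, which cover other bases. No paired analysis was possible because there is 1 group. Depth is unknown, the signal has no stated normalization, and with 2 replicates and no control library a region strong in both cannot be set against background.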

Other observations

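Mitochondrial ribosomal protein genes that carry another symbol were left out by the naming rule, and 3 were matched through synonyms: tko (mRpS12, known from the bang-sensitive mutant technical knockout), CG4866 (mRpS4) and bonsai (mRpS15). None had a summit in the conservative list or in either replicate's own list. In the ranked list behind the conservative one, the strongest candidate had a signal of 21.7 at tko (rank 51940), 25.3 at CG4866 (rank 36679) and 35.3 at bonsai (rank 11808). Each of the 3 promoters held CAGCTG, at 25 bp past the start in tko, 44 bp before it in CG4866, and 82 and 10 bp before it in bonsai.

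CAGCTG was counted in the promoters of the other gene lists too. It was in 55.6% of the 9 translation factor genes, 46.7% of the 15 synthetase genes and 38.9% of the 18 DNA and RNA genes, against 26.7% of the 15 import genes, 23.9% of the 88 oxidative phosphorylation genes, 9.78% of the 92 cytoplasmic ribosomal protein genes and 17.7% of all protein-coding genes. Of these lists, the cytoplasmic ribosomal protein genes had the lowest share of such promoters and the highest share of genes in the conservative list, 29.3%. Gene by gene over all protein-coding genes, 14.5% of those with the motif were in the conservative list, against 10.4% of those without. A relation between the motif and binding was not tested, and the smaller lists hold few listed genes.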
